A study of Mus musculus with 24 samples.

Results

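SmcHD1 (structural maintenance of chromosomes hinge domain containing 1) is a large chromatin protein of the SMC family that is known for its role in silencing the inactive X chromosome. On the autosomes it is known to take part in the silencing of clustered genes, among them imprinted genes, the clustered protocadherins and Hox genes. Neural stem cells (NSCs) grown with FGF2 and EGF are dividing progenitors with features of radial glia, and can give rise to neurons, astrocytes and oligodendrocytes. Here RNA levels of SmcHD1 knockout (KO) NSCs were set against those of wild-type (WT) NSCs for the genes outside the X and Y chromosomes.

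Both genotypes came from JB4/EI7HZ2, a line of female mouse embryonic stem cells (mESCs) whose mother was JF1 and whose father B6, and which carries a neomycin and a zeocin resistance gene on its X chromosomes, and mESCs and NSCs of both genotypes were kept in G418 and Zeocin to hold both X chromosomes. The KO line was made from it with CRISPR-Cas9 and has premature stop codons in both Smchd1 alleles. Cells of each genotype were differentiated to NSCs, and 3 libraries of poly(A) RNA were sequenced from each, out of 24 libraries in a series that also holds mESCs and neuroectoderm cells at day 7 and day 9 of differentiation. By the study's methods, the day 7 and day 9 cells came from another protocol than the NSCs. They are thus not forerunners of the NSCs, and stage and protocol cannot be told apart between them. Each genotype was 1 line, so genotype and line cannot be told apart. The study describes its RNA libraries as biological replicates from independent experiments, and whether each came from its own derivation of NSCs was not stated. Expression was given as FPKM (a count of fragments relative to transcript length and to the mapped reads of the library). Of the 22028 genes placed outside X and Y, 11118 had a mean of at least 1 FPKM over the 6 NSC libraries and were tested, 10910 were below, and 6304 of all were at 0 in every library. At the border, 115 tested genes had a mean between 1 and 1.1 FPKM and 139 untested genes had a mean between 0.9 and 1.

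The 6 libraries had a like depth, with relative read totals from 0.875 in KO NSC 1 to 1.04 in WT NSC 3 as computed from the steps between low values, but WT NSC 1 stood apart from the other WT libraries. Pearson's r of log2(FPKM + 1) across genes, which are not independent replicates, was 0.939 between WT NSC 1 and WT NSC 2 and 0.952 between WT NSC 1 and WT NSC 3, against 0.976 between WT NSC 2 and WT NSC 3 and 0.975 to 0.977 between KO libraries. WT NSC 1 was closest to KO NSC 1, with an r of 0.964. The median SD per gene on the log2 scale was 0.234 in WT NSCs and 0.148 in KO NSCs. WT NSC 1 had 0.151 FPKM of Gfap, the astrocyte filament protein, where WT NSC 2 and WT NSC 3 had 7.05 and 8.11. Its level of Apoe, a lipid carrier of astrocytes, was 35.9 FPKM against 438 and 369, and that of Hes5, a Notch target of radial glia, was 15.3 against 157 and 81.6. Nes, the filament protein nestin of neural progenitors, was at 267 FPKM against 97.5 and 115. Results that rest on WT NSC 1 are therefore given with and without it.

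Cell type markers matched the labels of both genotypes. The summed level of 10 neural stem cell markers, among them Sox2, Fabp7, Olig2 and Vim, was 5718 to 7448 FPKM in the WT libraries and 4281 to 5180 FPKM in the KO libraries. All 10 were at 1 FPKM or above in at least 1 library. Olig2, a transcription factor of cultured NSCs, was at 364, 303 and 346 FPKM in WT NSCs and at 351, 369 and 362 FPKM in KO NSCs. Neuron markers summed to 143.7 to 171.5 FPKM in WT and 136.5 to 174.4 FPKM in KO libraries. Most of that sum was Mtap2, with means of 134.5 FPKM in WT and 141.4 FPKM in KO. Tubb3, Neurod1, Snap25 and Stmn2 had lower means in KO NSCs and Rbfox3 a slightly higher one, and those tested were not called. Astrocyte markers summed to 55.99 to 122.8 FPKM in WT and 113.3 to 243.1 FPKM in KO libraries, and oligodendrocyte lineage markers to 12.69 to 43.65 FPKM and 8.842 to 19.19 FPKM. Mesenchyme markers gave 22.37 to 42.03 FPKM and 26.6 to 46.45 FPKM. Pluripotency markers summed to 1.506 to 6.614 FPKM in WT NSCs and 0.7435 to 1.622 FPKM in KO NSCs, and markers of endothelium and microglia to at most 2.101 FPKM in any library. In bulk RNA, fewer cells of a type and less RNA per cell cannot be told apart.

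Smchd1 (chr17:71693834-71824683, mm9, as are all positions of genes below) was at 21.4, 16.5 and 16.1 FPKM in the WT libraries and at 4.37, 3.83 and 3.43 FPKM in the KO libraries. Here and below, the values of a genotype are in the order of replicates 1, 2 and 3. All 3 KO libraries lay below all 3 WT libraries. The difference of log2(FPKM + 1), KO minus WT, was -1.96 ± 0.16 (SE, n = 3 per genotype), with a limma adjusted p of 0.00425. An exact permutation test of this gene alone gave a two-sided p of 0.1, the smallest that 3 against 3 libraries allow. The remaining reads are of the transcript and say nothing of the protein, which the study reported as absent from the KO mESCs by western blot.

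In limma, with Benjamini-Hochberg adjustment over the 11118 genes and a threshold of 0.05, 64 genes differed between KO and WT NSCs, which is 0.576% of those tested, with 34 higher and 30 lower in KO NSCs. Of the 64, 58 changed by at least 1 on the log2 scale, and in all 64 every KO library lay on 1 side of every WT library. Of the 34 that were higher, 13 had a mean under 1 FPKM in WT NSCs, and of the 30 that were lower, 9 had one in KO NSCs, so that these passed the filter through 1 genotype alone. The libraries of 1923 genes did not overlap in either direction, 17.3% of those tested. At an unadjusted p under 0.05 the count was 1280. WT and KO libraries of equal number deviated together, and a fit with the replicate number as a block called 128 genes, 1.15% of those tested, of which 66 were higher and 62 lower. The blocked fit kept 61 of the 64 genes and added 67. All 3 KO minus WT differences between same-numbered libraries had the same sign for 4264 genes, 38.4% of those tested, with 2222 higher and 2042 lower in KO NSCs, and were at least 1 on the log2 scale in all 3 pairs for 49 genes upward and 43 downward. A limma fit of all 24 libraries in 8 groups, which share 1 estimate of the spread, called 801 genes, 7.21% of those tested. Weights for the unequal spread of the groups brought that count to 265. The median difference of all tested genes was 0.017.

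Leaving out single libraries moved the count of 64 widely. Without WT NSC 1 it was 655, 5.89% of those tested, and all 64 genes were still called. Without both libraries of pair 1, the count was 350, 3.15% of those tested, with 62 of the 64 among them. Leaving out WT NSC 2, WT NSC 3, KO NSC 1, KO NSC 2 or KO NSC 3 left 35, 10, 19, 16 and 9 calls. The direction of all 64 genes was the same in each of these fits. Genes said below to have risen or fallen passed the test over the 6 libraries, and where the replicate block changed the call, its p is given.

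Hox genes encode the homeodomain transcription factors that give cells their position along the body axis, and they lie in 4 clusters whose genes are known to be opened in order from the anterior to the posterior end. Of 39 Hox genes listed, 10 passed the filter, and 3 of these rose and 3 fell in KO NSCs, against 0.576% of all tested genes. Hoxd8 and Hoxd9 passed the filter through the KO libraries alone, so that their place in this count follows in part from the filter. The 3 that rose were Hoxd8, Hoxd9 and Hoxa5, and those that fell were Hoxa2, Hoxb2 and Hoxb3. The risen genes belong to more posterior groups than the fallen ones. The 250 bases before the gene start of 3 of them are shown because they are the promoters of genes from 2 clusters that moved in both directions. They were read from the NCBIM37 assembly (mm9) at the gene starts of GENCODE M1, 5′ to 3′ on the strand of the gene, with each CG dinucleotide, the site of DNA methylation, in capitals.
Hoxd8: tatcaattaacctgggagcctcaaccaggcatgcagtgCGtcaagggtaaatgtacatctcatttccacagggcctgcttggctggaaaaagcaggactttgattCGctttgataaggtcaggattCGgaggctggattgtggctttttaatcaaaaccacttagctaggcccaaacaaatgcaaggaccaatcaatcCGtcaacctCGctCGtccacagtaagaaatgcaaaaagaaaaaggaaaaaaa
Hoxd9: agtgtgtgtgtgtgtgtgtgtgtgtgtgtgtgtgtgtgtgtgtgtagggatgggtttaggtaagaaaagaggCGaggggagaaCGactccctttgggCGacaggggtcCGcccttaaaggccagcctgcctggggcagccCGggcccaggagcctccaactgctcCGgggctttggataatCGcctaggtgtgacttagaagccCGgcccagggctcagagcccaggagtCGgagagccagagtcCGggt
Hoxa2: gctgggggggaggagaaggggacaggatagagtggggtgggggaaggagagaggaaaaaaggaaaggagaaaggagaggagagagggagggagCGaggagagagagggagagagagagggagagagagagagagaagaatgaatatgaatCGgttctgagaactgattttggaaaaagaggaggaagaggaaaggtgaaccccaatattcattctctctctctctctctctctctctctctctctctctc
The windows were chr2:74542422-74542671 (plus strand) for Hoxd8, chr2:74535487-74535736 (plus strand) for Hoxd9 and chr6:52115413-52115662 (minus strand) for Hoxa2. The deposited loci start further downstream, at 74543546 for Hoxd8, 74535820 for Hoxd9 and 52114830 for Hoxa2, so that each window ends before the start used by the authors. Hoxd9 held 10 CG dinucleotides, Hoxd8 held 6 and Hoxa2 held 2, where the median of 10492 tested genes with such a window was 16. In the windows not shown, Hoxa5 held 28, Hoxb2 8 and Hoxb3 9. DNA methylation was not measured in these libraries.

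Hoxd8 (chr2:74543546-74545364) was at 0.155, 0 and 0 FPKM in WT NSCs and at 7.36, 9.5 and 13.2 FPKM in KO NSCs. Its difference of 3.36 ± 0.23 (SE) on the log2(FPKM + 1) scale had a limma adjusted p of 0.00189. Its neighbour Hoxd9 (chr2:74535820-74538265), whose promoter had the most CG dinucleotides of the 3 shown, was listed at 0 in all 3 WT libraries and at 3.2, 4.83 and 5.94 FPKM in the KO libraries (adjusted p = 0.00743). Both genes were thus near or at 0 in every WT library and above 3 FPKM in every KO library. Hoxa5 had 3.06, 1.6 and 0.949 FPKM in WT NSCs and 9.37, 12.5 and 10.1 FPKM in KO NSCs, a rise of 2.08 ± 0.28 on the log2 scale (adjusted p = 0.0267). The files place Hoxa3, Hoxa4, Hoxa5 and Hoxa6 on 1 shared locus, chr6:52119061-52163596, so their reads may not be fully told apart. Hoxa4 was at 3.58, 1.35 and 1.2 FPKM in WT and 6.63, 6.49 and 7.56 in KO libraries (adjusted p = 0.0988), and Hoxa3 at 6.9, 2.59 and 3.09 in WT and 7.51, 10.7 and 10.3 in KO (adjusted p = 0.209). For both, the KO libraries lay above the WT libraries without overlap, and neither passed the test. Both did without WT NSC 1, with limma adjusted p of 0.000682 for Hoxa4 and 0.0035 for Hoxa3, so that 5 of the 10 Hox genes were higher and 3 lower in that fit, against 5.89% of all tested genes. Mira, a noncoding RNA entry of the HoxA cluster at chr6:52164490-52165287, was at 0, 0.3 and 0.593 FPKM in WT and 2.11, 5.66 and 7.51 in KO libraries, with an adjusted p of 0.0679 and of 0.0167 with the replicate block.

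The anterior Hox genes went the other way. Hoxa2 (chr6:52112510-52114830), which patterns the hindbrain and the cranial neural crest, was at 19.7, 22 and 24.5 FPKM in WT NSCs and fell to 5.23, 5.7 and 2.54 FPKM in KO NSCs, a difference of -2.12 ± 0.25 (adjusted p = 0.0173). It lies next to the shared locus of Hoxa3 to Hoxa6 within the same cluster. Hoxb2 (chr11:96212946-96215328) had 10.8, 8.88 and 12.8 FPKM in WT and 1.76, 3.8 and 1.13 FPKM in KO libraries (-1.94 ± 0.30, adjusted p = 0.0459), and its p with the replicate block was 0.0616. Hoxb3 (chr11:96184440-96209244) had 7.71, 9.1 and 7.15 FPKM in WT and 1.41, 2.23 and 0.806 in KO libraries (-1.89, adjusted p = 0.024). In none of these 3 genes did the libraries of the genotypes overlap. Hoxb2 and Hoxb3 lie in a part of chromosome 11 where most genes were lower in KO NSCs. Hoxb4 had 1.04, 1.74 and 1.79 FPKM in WT and 0.619, 2.06 and 0.606 FPKM in KO, with overlapping libraries and an adjusted p of 0.773.

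**Figure D1:**
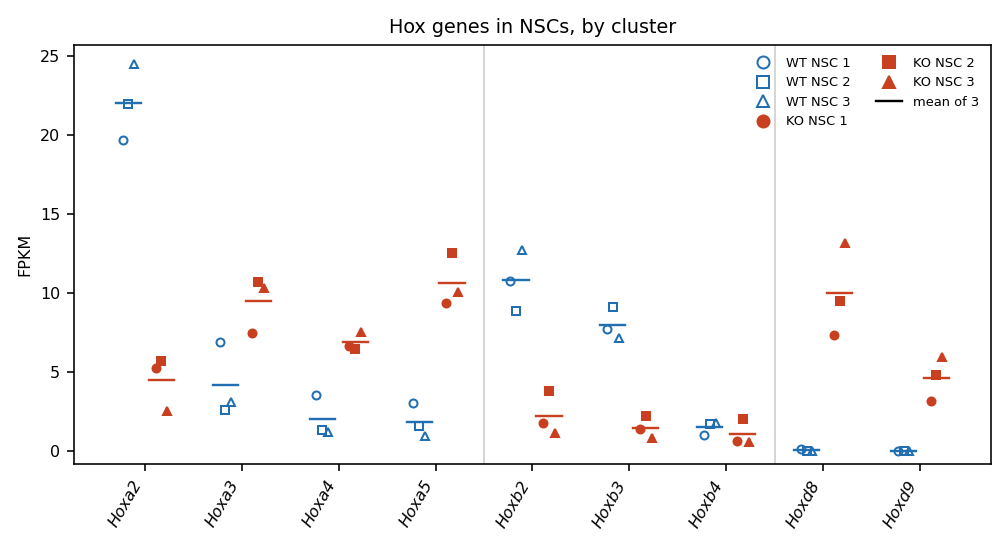
FPKM (linear axis) of 9 of the 10 Hox genes that were tested, ordered by cluster, in 3 WT (open) and 3 KO (filled) NSC libraries, with marker shapes for the replicate number and a bar at the mean of 3. Hoxd8 and Hoxd9 sit at or near 0 in every WT library, while Hoxa2, Hoxb2 and Hoxb3 sit lower in every KO library.

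Among the genes that rose from low levels were developmental transcription factors outside the Hox clusters, which were grouped here after their values were seen, while another such factor, Zfp703, fell. Dmrta2, a doublesex-related factor of the dorsal telencephalon, was at 0.277, 0.26 and 0.322 FPKM in WT NSCs and at 5.87, 7.23 and 6.26 FPKM in KO NSCs (2.53 ± 0.18, adjusted p = 0.00189). Zic1, a zinc finger factor of the dorsal neural tube, was at 3.74, 2.21 and 2.24 FPKM in WT and 15.9, 16.5 and 16.3 FPKM in KO (2.23 ± 0.19, adjusted p = 0.00425). Vax2, a homeodomain factor of the ventral eye and forebrain whose locus overlaps its antisense entries, was at 2.03, 3.81 and 2.4 FPKM in WT and 14.6, 17.1 and 13.9 FPKM in KO (2.14 ± 0.20, adjusted p = 0.00743). In these 3 genes the 3 KO libraries lay close together and far above the WT libraries. Six2, a homeodomain factor of the developing kidney, rose together with Eya2, a coactivator of such factors. Six2 was at 0.299, 0.281 and 0.649 FPKM in WT and 4.06, 3.14 and 3.95 FPKM in KO (adjusted p = 0.0173), and Eya2 at 0.264, 0.33 and 0.49 FPKM in WT and 2.13, 2.51 and 2.4 FPKM in KO (adjusted p = 0.0378). Tfap2a, a neural crest and surface ectoderm factor, was at 0.5, 0.336 and 0.531 FPKM in WT and 4.72, 4.71 and 7.37 FPKM in KO (2.16, adjusted p = 0.00902).

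Tbx15, a T-box factor of limb and craniofacial mesenchyme, rose from 3.33, 2.39 and 1.42 FPKM in WT to 10.8, 12.6 and 9.53 FPKM in KO libraries (adjusted p = 0.024), and Barx1, a homeodomain factor of facial mesenchyme and stomach, from 0.164, 0 and 0.152 to 2.89, 3.39 and 1.85 FPKM (adjusted p = 0.0267). Cebpa, a factor of liver, fat and myeloid cells, rose from 2.49, 2.42 and 2.46 to 8.49, 6.45 and 7.05 FPKM (adjusted p = 0.0244). Fzd10, a Wnt receptor of the dorsal neural tube, rose from 2.11, 1.79 and 0.761 to 8.11, 9.27 and 6.23 FPKM (adjusted p = 0.0298). None of these 4 genes had overlapping libraries, and the largest level of any of them in a KO library was 12.6 FPKM, far under the level of NSC genes such as Olig2. Lists of regional genes held 3 of the calls: 1 of 5 tested forebrain genes rose (Vax2), 1 of 4 dorsal neural tube genes (Zic1) and 1 of 6 neural crest genes (Tfap2a, which passed the filter through the KO libraries alone), and 0 of 7 ventral neural tube genes and 0 of 11 midbrain and hindbrain genes were called, against 0.576% of all tested genes. The medians of these lists were 0.408, -0.061, -0.403, 0.285 and 0.218 on the log2 scale. Without WT NSC 1 they were 0.658, 0.081, -0.281, 0.064 and -0.034, so that the sign turned for the dorsal list and for the midbrain and hindbrain list, and 2, 1, 3, 0 and 2 genes of the lists were called, against 5.89% of all tested genes.

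**Figure D2:**
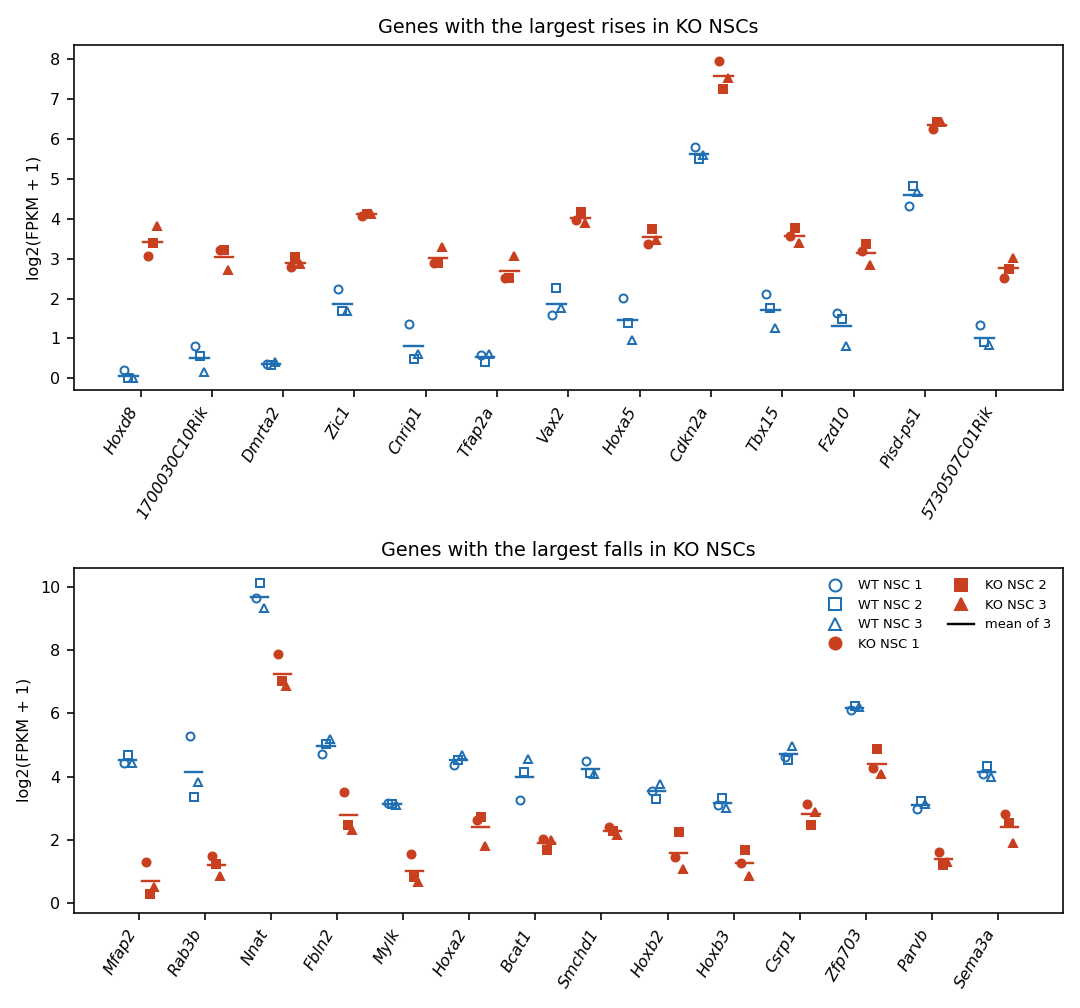
Level as log2(FPKM + 1) of 13 of the 14 genes with the largest rises (upper panel) and of the 14 with the largest falls (lower panel) among called genes with a mean of at least 5 FPKM in the higher genotype, short RNA entries left out, in 3 WT (open) and 3 KO (filled) NSC libraries. Bars mark the mean of 3 libraries, marker shapes the replicate number, and the libraries of the genotypes do not overlap in any of the genes.

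Among cell cycle genes, an inhibitor locus on chromosome 4 held the 1 call over the 6 libraries. Cdkn2a, which encodes the inhibitors p16-INK4a and ARF, was at 54.8, 44.7 and 47.4 FPKM in WT NSCs and rose to 248, 152 and 184 FPKM in KO NSCs (1.94 ± 0.19, limma adjusted p = 0.00743). Every KO library was above every WT library, and the lowest KO value was 152 FPKM. The files give 1 entry for Cdkn2a (chr4:88920377-88940523), so its 2 products cannot be told apart. Cdkn2b, the neighbouring inhibitor p15-INK4b (chr4:88952198-88956941), was at 5.74, 5.1 and 13.3 FPKM in WT and 17.4, 15.1 and 30.7 FPKM in KO libraries, with an adjusted p of 0.217, and of 0.0124 with the replicate block. Replicate 3 was the highest of its genotype in both, and KO exceeded WT by 1.45, 1.40 and 1.14 on the log2 scale in pairs 1, 2 and 3. Ccnd2, a G1 cyclin, was at 152, 87.2 and 148 FPKM in WT and 212, 142 and 228 FPKM in KO, with overlapping libraries and an adjusted p of 0.438 (0.044 with the block). Of 32 tested cell cycle genes 1 was called, Cdkn2a, and the blocked fit called 3, all higher in KO NSCs (Cdkn2a, Cdkn2b and Ccnd2). These shares stand against 0.576% and 1.15% of all tested genes. The list's median was 0.140. Without WT NSC 1 it was 0.378, with 3 genes higher and 1 lower in KO NSCs, against 5.89% of all tested genes. Of 17 tested p53 targets 0 were called in either of these fits, with a median of 0.226. Without WT NSC 1, 5 of them were higher and 1 lower in KO NSCs, where 5.89% of all tested genes were called, and the median was 0.329.

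The largest fall among longer transcripts was that of Mfap2 (chr4:140566339-140571899), which encodes a small glycoprotein of fibrillin microfibrils. It was at 20.7, 24.9 and 20.6 FPKM in WT NSCs and at 1.47, 0.22 and 0.42 FPKM in KO NSCs (-3.82 ± 0.27, limma adjusted p = 0.00189). Fbln2, the matrix protein fibulin 2, was at 25.6, 31.6 and 35.6 FPKM in WT and 10.5, 4.62 and 4.03 FPKM in KO libraries (-2.20 ± 0.31, adjusted p = 0.0272), with a p of 0.065 in the blocked fit. These were the 2 called genes of 16 tested microfibril and elastic fibre genes, against 0.576% of all tested genes, though Mfap2 passed the filter through the WT libraries alone, and with the block 1 was called, against 1.15%. The median of the list was 0.041, and its other 14 genes did not pass the test. Of 17 tested collagen genes and 32 tested genes of matrix and adhesion 0 were called, with medians of 0.420 and 0.054, and the blocked fit called Col5a3, lower in KO NSCs (6.84, 5.71 and 5.49 against 3.16, 1.18 and 1.49 FPKM). Without WT NSC 1 these medians were 0.410 and 0.074. In that fit 1 collagen gene was higher and 2 lower, and 1 matrix and adhesion gene was lower, against 5.89% of all tested genes.

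Genes for proteins of the actin cytoskeleton and of adhesion sites were among those that fell. Mylk, the kinase of the myosin light chain, was at 8.09, 7.84 and 7.71 FPKM in WT and 1.93, 0.787 and 0.612 FPKM in KO libraries (-2.12 ± 0.25, adjusted p = 0.0171). Csrp1, a LIM protein of actin bundles, was at 23.9, 21.9 and 30.5 FPKM in WT and 7.87, 4.54 and 6.4 FPKM in KO (-1.88 ± 0.21, adjusted p = 0.0137). Tgfb1i1, a LIM protein of focal adhesions also named Hic-5, was at 3.1, 5.38 and 5.38 FPKM in WT and 0.889, 0.199 and 0.761 FPKM in KO (adjusted p = 0.0403). In all 3 genes every WT library was above every KO library, and KO NSC 1 was the highest KO library. Flnc, the actin crosslinker filamin C, fell from 2.46, 3.15 and 2.56 to 0.747, 0.188 and 0.28 FPKM (adjusted p = 0.048, and 0.0548 with the replicate block). Parvb, beta-parvin of focal adhesions, fell from 6.89, 8.41 and 7.87 to 2.09, 1.34 and 1.48 FPKM (adjusted p = 0.0106). Iqgap2, a scaffold protein that binds actin and small GTPases, fell from 27, 19.2 and 19.9 to 11.2, 9.95 and 10.3 FPKM (adjusted p = 0.0475). Prkcdbp, which encodes the caveolar protein cavin 3, was at 2.08, 3.69 and 2.14 FPKM in WT NSCs and listed at 0 in all KO libraries (adjusted p = 0.0244). Actin cytoskeleton genes were grouped here after their values were seen, and no list of them was counted.

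Genes of neurons and progenitors, again grouped after their values were seen, were also among those that fell. Nnat, which encodes the membrane proteolipid neuronatin and is imprinted, was at 799.7, 1102 and 636 FPKM in WT NSCs and at 231, 130.0 and 115 FPKM in KO NSCs (-2.44 ± 0.30, adjusted p = 0.0202), the largest loss in FPKM among the called genes. Its locus as listed (chr2:157382098-157392097) overlaps that of Blcap, so the reads of Nnat and Blcap may not be fully told apart. Rab3b, a GTPase of secretory vesicles, fell from 38.3, 9.28 and 13.3 to 1.81, 1.38 and 0.804 FPKM (-2.97 ± 0.47, adjusted p = 0.048), with WT NSC 1 far above the other WT libraries. Prom1, the surface protein prominin 1 or CD133 that is used to isolate neural stem cells, fell from 14.2, 17.9 and 16.5 to 4.9, 5.99 and 5.52 FPKM (-1.41 ± 0.14, adjusted p = 0.00983). Here the libraries within a genotype lay close together. Sema3a, a secreted axon guidance cue, fell from 16.1, 19.4 and 15.1 to 6.02, 4.75 and 2.77 FPKM (adjusted p = 0.0272), and Crmp1, an intracellular mediator of semaphorin signals, from 40, 40.5 and 37.7 to 24.8, 23.3 and 20.3 FPKM (adjusted p = 0.0428). Bmpr1b, a type I BMP receptor, fell from 4.96, 5.53 and 4.2 to 1.22, 1.57 and 0.942 FPKM (adjusted p = 0.0272). It was the 1 called gene of 18 tested BMP and TGF-beta genes, against 0.576% of all tested genes, and the median of the list was 0.238. With the block Bmpr1b was lower and Inhbb higher, against 1.15% of all tested genes.

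Among the other genes that fell, Zfp703, a zinc finger corepressor, was at 67.9, 74.2 and 72 FPKM in WT and 18.5, 28.1 and 15.9 FPKM in KO libraries (adjusted p = 0.0137). H1f0, a linker histone of slowly dividing and differentiated cells, was at 103, 121 and 145 FPKM in WT and 60.6, 60 and 51.9 FPKM in KO (adjusted p = 0.0272), and Bcat1, the cytosolic branched-chain aminotransferase, at 8.54, 16.6 and 22.6 FPKM in WT and 3.09, 2.25 and 3.02 FPKM in KO (adjusted p = 0.0417). H1f0 and Bcat1 both kept clear of overlap, Bcat1 in spite of a wide spread in WT NSCs. Isyna1, which makes inositol phosphate from glucose phosphate, fell from 4.76, 2.84 and 5.18 to 0.639, 0.572 and 0.547 FPKM, the lysosomal protease gene Ctsz from 8.62, 6.9 and 7.12 to 2.28, 1.89 and 1.05 FPKM, and Mapk8ip2, a JNK scaffold of neurons, from 4.95, 7.28 and 7.04 to 2.26, 2.36 and 2.2 FPKM, with adjusted p of 0.0267, 0.0259 and 0.048. Igsf10 and the uncharacterised gene 2510002D24Rik fell from 3.02, 4.41 and 5.16 to 0.762, 0.701 and 0.344 and from 3.32, 4.51 and 3.26 to 0.609, 0.727 and 0.174 FPKM (adjusted p = 0.0272 and 0.0272). Other genes lie within the loci of Igsf10, Mylk, Rab3b, Iqgap2 and Ctsz, and since counting by strand was not stated, reads of such partners may not have been told apart.

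Among the other rises were those of a metabolic enzyme gene and of several signalling genes. Gpd1, the cytosolic glycerol phosphate dehydrogenase, rose from 4.56, 6.98 and 9.64 FPKM in WT to 24.1, 19.4 and 29.4 FPKM in KO libraries (1.68 ± 0.25, adjusted p = 0.0403). Csf2ra, the alpha chain of the GM-CSF receptor, rose from 5.08, 7.7 and 8.79 to 17, 20.9 and 20.8 FPKM (adjusted p = 0.0358), and Cnrip1, which binds the cannabinoid receptor, from 1.56, 0.401 and 0.528 to 6.42, 6.44 and 8.84 FPKM (adjusted p = 0.0202). None of these 3 genes had libraries that overlapped between genotypes. Efna3, an ephrin ligand, rose from 1.86, 0.698 and 1.73 to 5.32, 5.86 and 7 FPKM (adjusted p = 0.0447), and Chrna4, a nicotinic receptor subunit, from 1.17, 1.56 and 2.08 to 4.89, 5.88 and 5.67 FPKM (adjusted p = 0.0357). Smaller rises were those of Svip, an inhibitor of protein degradation at the endoplasmic reticulum (1.24), D18Ertd653e (1.06), the matrix protease gene Adamts4 (1.00) and Fam19a5, a secreted brain protein (0.84), with adjusted p of 0.0259, 0.0378, 0.0475 and 0.0267.

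Imprinted genes and clustered protocadherins held 3 of the 64 calls. Of 28 tested imprinted genes 1 rose, Nap1l5, and 1 fell, Nnat, which is 7.14% of the list against 0.576% of all tested genes, and the median of the 28 was 0.061. Nap1l5, a paternally expressed retrogene within the Herc3 locus, was at 41.8, 43.6 and 40.6 FPKM in WT and 67, 78 and 77 FPKM in KO libraries (0.80 ± 0.11, adjusted p = 0.0272). Slc38a4, an amino acid transporter gene that is imprinted in placenta and not on that list, was at 11.2, 2.92 and 4.12 FPKM in WT and 0.337, 0.0502 and 0.048 FPKM in KO, with an adjusted p of 0.0545 and of 0.0209 with the replicate block. The parental alleles are not separated in these values. Clustered protocadherins are cell surface proteins of which single neurons use different sets, and of 19 tested members 1 rose and 0 fell, or 5.26%, with a median of 0.308, and of 0.161 without WT NSC 1. The risen gene was Pcdhb5, at 2.62, 3.22 and 4.72 FPKM in WT and 8.79, 10.1 and 12.5 FPKM in KO libraries (adjusted p = 0.048). Pcdhb6, its neighbour, had values of 2.15, 5.14 and 5.01 FPKM in WT and 1.09, 2.12 and 1.01 FPKM in KO, lower in KO NSCs without overlap (adjusted p = 0.24). The files place both on 1 locus of chromosome 18 (chr18:37089939-38001526) with the rest of the cluster, whose members share sequence, and their reads are uncertain. Over the 19 members 6 were higher and 2 lower without overlap, where 954 of all tested genes were higher and 969 lower in that way, 17.3% in all.

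Several of the 67 genes called only with the replicate block had pairs that moved together over a wide range of levels. Aldh1a1, which makes retinoic acid, was at 0.311, 1.85 and 3.67 FPKM in WT and 7.09, 14.1 and 30.9 FPKM in KO libraries, with replicate 1 the lowest and replicate 3 the highest in both genotypes, and with KO above WT in each pair. Its adjusted p was 0.136 without and 0.00417 with the block. Tagln2, an actin-binding protein, was at 209, 70.5 and 123 FPKM in WT and 48.8, 27.6 and 40.8 FPKM in KO (adjusted p = 0.0122 with the block in limma), S100a10, a partner of annexin A2, at 258, 122 and 127 FPKM in WT and 69.1, 59.8 and 53.2 FPKM in KO (0.0282), and the matrix protease gene Mmp2 at 51.9, 17.4 and 16.3 FPKM in WT and 15.6, 5.08 and 7.88 FPKM in KO (0.0229). In these 3 genes pair 1 had the highest level in both genotypes. Gap43, a growth cone protein, was at 162, 70.7 and 127 FPKM in WT and 71.8, 37 and 52.6 FPKM in KO (0.0122), and its libraries overlapped between the genotypes. Vim, the intermediate filament of neural stem cells, was at 1448, 1287 and 1417 FPKM in WT and 1000.0, 901 and 940.5 FPKM in KO (-0.55, adjusted p = 0.029 with and 0.121 without the block). Inhbb, an activin subunit, had 3.42, 9.3 and 8.19 FPKM in WT and 11.3, 17 and 18.4 FPKM in KO (0.0359).

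Transcription factors of neural progenitors were also among the genes called with the block alone. Sox9 was at 36.1, 57.7 and 50.1 FPKM in WT and 19.7, 34.9 and 30.2 in KO libraries, and Sox21 at 52.3, 61.3 and 51.7 FPKM in WT and 33.3, 36.4 and 25 FPKM in KO, with limma adjusted p of 0.0297 and 0.0359 with the block and 0.276 and 0.101 without. Meis2, a cofactor of HOX and PAX proteins, had 14.9, 35.8 and 27.3 FPKM in WT and 7.21, 9.72 and 7.03 in KO libraries, and Gbx2, a factor of the anterior hindbrain, 13.1, 6.22 and 6.43 FPKM in WT and 5.11, 3.02 and 2.14 FPKM in KO (adjusted p = 0.0265 and 0.037 with the block). All 4 were lower in each pair without overlap between the genotypes. Of 25 tested neural stem cell and radial glia genes 1 fell, Prom1, and with the block 3 were lower, Prom1, Vim and Sox9, against 0.576% and 1.15% of all tested genes. The median of that list was -0.134. It was -0.398 without WT NSC 1, with 5 genes lower and 0 higher, against 5.89% of all tested genes. Sox2, at 139, 204 and 211 FPKM in WT and 108, 156 and 128 FPKM in KO, and Fabp7, the fatty acid binding protein of radial glia, at 3264, 4998 and 3325 FPKM in WT and 3089, 3025 and 2286 FPKM in KO, did not pass over all NSC libraries, with or without the block. Without WT NSC 1, Sox2 passed in limma (adjusted p = 0.0418) and Fabp7 did not (0.204).

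Other genes called with the block alone were of glia, neurons and signalling. Higher in each pair were Trf, the iron carrier transferrin (1.25, 0.754 and 1.99 FPKM in WT and 4.62, 4.13 and 10.2 in KO libraries), Gpr37l1, a receptor of astrocytes (2.04, 10 and 9.56 in WT and 13.8, 23.4 and 31 in KO), and Nptx2, a secreted pentraxin of synapses (1.13, 0.38 and 0.301 in WT and 5.61, 4.06 and 2.74 in KO), with limma adjusted p of 0.0229, 0.0308 and 0.0209 with the block. The kinase gene Rps6ka1 (4.53, 2.92 and 8.61 FPKM in WT and 14.2, 10.7 and 36.2 FPKM in KO), the chemokine gene Cxcl14 (1.29, 0.33 and 1.2 in WT and 5.8, 2.77 and 4.08 in KO) and Isl2, a LIM homeodomain factor of motor neurons (0.346, 0.758 and 0.857 in WT and 2.16, 4.88 and 3.48 in KO), had adjusted p of 0.0112, 0.0282 and 0.037. The receptor kinase gene Axl and the adhesion gene Chl1 were higher by 0.88 and 0.98 on the log2 scale. Among the lower genes, Mtap1b, a microtubule protein of neurons, was at 16.9, 7.46 and 10.1 FPKM in WT and 3.23, 2.04 and 3 in KO libraries (adjusted p = 0.0166 with the block). Matn2, a matrix protein, was at 45, 18.9 and 20.6 FPKM in WT and 12, 7.85 and 7.34 FPKM in KO (0.0158), and Acsl5, a fatty acid ligase, at 5.86, 3.88 and 6.17 FPKM in WT and 1.49, 0.381 and 1.21 FPKM in KO (0.0167). Syk, Bok and Grm3, a tyrosine kinase, a BCL2 family member and a glutamate receptor, were lower, with differences of -1.55, -1.48 and -1.13 on the log2 scale. In none of the 14 genes did libraries of the genotypes overlap, and none passed the test without the block.

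Some gene lists differed between the genotypes in 2 pairs and not in the one that held WT NSC 1. The integrated stress response is the programme that ATF4 drives when amino acids are short or the endoplasmic reticulum is stressed. Of its 29 tested genes 0 were called over the 6 libraries, against 0.576% of all tested genes, while the median difference was -1.139, with -0.045 in pair 1 and -1.681 and -1.798 in pairs 2 and 3. The median difference of the list from the WT mean was -1.056 in WT NSC 1, 0.458 and 0.677 in the other WT libraries, and -1.189, -1.221 and -1.236 in the KO libraries. Nupr1, a stress-induced nuclear protein, was at 5.38, 135 and 95 FPKM in WT and 4.94, 1.32 and 1.27 in KO libraries. Chac1, which degrades glutathione, was at 2.5, 44 and 82 FPKM in WT and 1.84, 1.64 and 2.36 FPKM in KO, and Asns, asparagine synthetase, at 48.5, 274 and 288 FPKM in WT and 42.9, 37.6 and 47.2 FPKM in KO. In these 3 genes WT NSC 1 was near the KO libraries and the other WT libraries were far above. Without WT NSC 1, 24 of the 29 genes were lower and 1 higher in limma, and without both libraries of pair 1 these counts were 23 and 1, against 5.89% and 3.15% of all tested genes. Atf4 itself was at 179, 256 and 295 FPKM in WT and 140.2, 112 and 97.6 FPKM in KO (adjusted p = 0.106). With the block 1 gene was higher, Cebpb (4.09, 3.43 and 6.78 FPKM in WT and 8.84, 7.91 and 12.4 FPKM in KO), and 1 lower, Gdf15 (4.96, 3.44 and 11 FPKM in WT and 0.949, 0.212 and 0.609 FPKM in KO), against 1.15% of all tested genes.

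Cholesterol synthesis genes showed the reverse. Of 18 tested genes 0 were called over the 6 libraries, with a median difference of 0.425, and the list's median difference from the WT mean was 0.822 in WT NSC 1, -0.551 and -0.236 in WT NSC 2 and WT NSC 3, and 0.498, 0.425 and 0.343 in the KO libraries. Idi1, an isomerase of the pathway, was at 100.2, 28.1 and 32.2 FPKM in WT and 75.3, 70.6 and 72.6 FPKM in KO libraries. The KO libraries thus lay between WT NSC 1 and the other WT libraries. Without WT NSC 1, 15 of the 18 genes were higher in KO NSCs and 0 lower, and without pair 1 the counts were 10 and 0, against 5.89% and 3.15% of all tested genes called in these fits.

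The glial lists moved in part with WT NSC 1 as well. Of 17 tested astrocyte genes 0 were called, with a median of 0.661. The median was 0.162 without WT NSC 1, and without pair 1 it was 0.334, with 1 gene higher and 0 lower in each of these fits, against 5.89% and 3.15% of all tested genes called in them. The medians from the WT mean were -0.622, 0.339 and 0.258 in the WT libraries and 0.447, 0.591 and 0.856 in the KO libraries. All 3 pairs were higher in KO for 10 of the 17 genes and lower for 0, where 2222 of all tested genes were higher in all pairs. Aqp4, the water channel of astrocytes, was at 0.428, 1.83 and 1.63 FPKM in WT and 2.7, 4.99 and 10.7 FPKM in KO libraries (adjusted p = 0.225, and 0.0489 with the block). Gfap was at 7.5, 6.87 and 60.6 FPKM in the KO libraries, so that KO NSC 3 was far above all others, and its adjusted p was 0.647. Of 10 tested oligodendrocyte lineage genes 0 were called, with a median of -0.140, and without WT NSC 1 the median was -0.721 and 3 were lower, against 5.89% of all tested genes. Sox10, a factor of that lineage, was at 0.757, 9.17 and 6.75 FPKM in WT and 0.666, 0.298 and 0.856 FPKM in KO libraries, and Pdgfra, the receptor of its progenitors, at 5.85, 27.4 and 19.8 FPKM in WT and 8.18, 5.88 and 12.2 FPKM in KO. WT NSC 2 and WT NSC 3 stood above the other libraries in both. The part that glial cells had in the results on single genes was not tested.

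**Figure D3:**
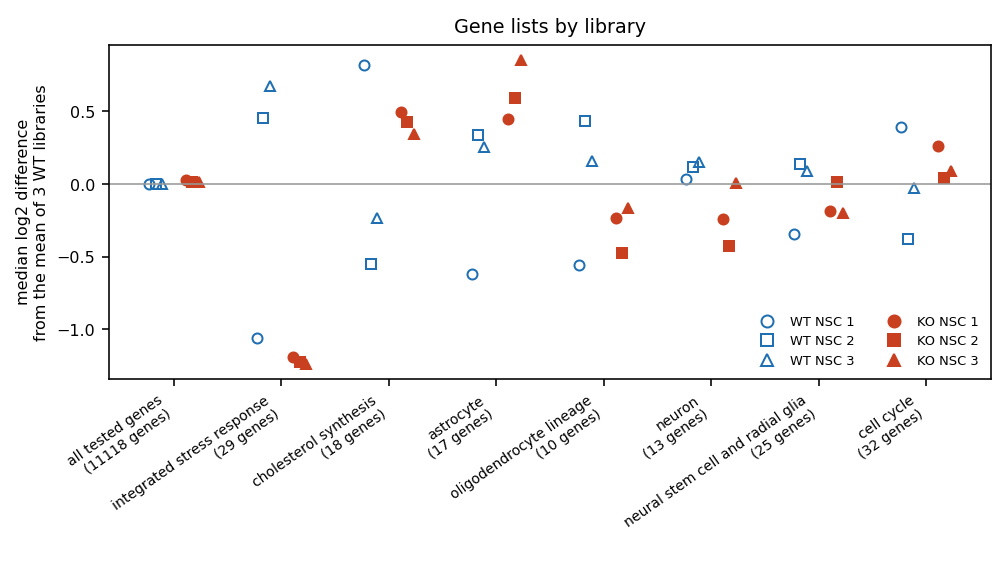
Median log2 difference from the mean of the 3 WT libraries (vertical axis) for all tested genes and 7 gene lists, 1 point per NSC library, WT open and KO filled. For the integrated stress response, WT NSC 1 sits at -1.056 beside the KO libraries, and for cholesterol synthesis at 0.822 above them.

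Genes of distal chromosome 11 were on balance lower in KO NSCs. Of 929 tested genes on it, 394 lay from 85 Mb to its end, a border chosen after the values were seen, and their median difference was -0.288, where that of 535 genes before 85 Mb was 0.0187 and that of 10189 genes on other autosomes 0.0235. Of the 394 genes, 351 or 89.1% had a lower mean in KO NSCs, against 45.2% on the other autosomes. All 3 pairs were lower for 227 or 57.6%, against 16.9%. The libraries did not overlap, with KO lower, for 146 or 37.1%, against 7.71% on the other autosomes and 8.72% of all tested genes. The median difference of the region was -0.191, -0.294 and -0.416 in pairs 1, 2 and 3, so that it did not rest on pair 1. Measured from the WT mean, the medians were -0.0972, 0.0075 and 0.0899 in the WT libraries and -0.251, -0.278 and -0.310 in the KO libraries. Of the 394 single genes 3 fell and 0 rose, against 0.576% of all tested genes, and with the block 6 were lower, against 1.15%. In the limma fit of all 8 groups 84 were lower and 1 higher, against 7.21% of all tested genes.

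In steps of 5 Mb the median was -0.0822 from 80 to 85 Mb, -0.257 from 85 to 90 Mb and -0.336 at its lowest, from 100 to 105 Mb, and from 75 to 80 Mb it was 0.0579. Among 127 windows of 20 Mb with at least 20 tested genes, the 3 lowest medians were those of chromosome 11, at -0.306 from 100 to 120 Mb (220 genes), -0.288 from 120 Mb (44 genes) and -0.236 from 80 to 100 Mb (164 genes). The next was -0.190 on chromosome 3 from 140 to 160 Mb, and the highest was 0.151 on chromosome 1 from 140 to 160 Mb. Over whole chromosome 11 the median per library was -0.0215, -0.0021 and 0.0310 in WT and -0.0726, -0.108 and -0.129 in KO. An exact permutation test gave a two-sided p of 0.1, the smallest possible with 3 against 3, and 0.173 when adjusted over 19 autosomes. Several other autosomes had the same p, among them chromosome 2 with a difference of 0.0197, so this test does not set chromosome 11 apart. DNA copy number was not measured in these libraries, and its part in the result was not tested.

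The difference of the region was present in NSCs and near 0 at the other stages. Its median KO minus WT difference was 0.0310 in mESCs, 0.0329 at day 7 and -0.0054 at day 9. The median difference of its genes, NSCs minus day 9 cells, was 0.288 in WT and -0.0050 in KO cells, where the other autosomes had 0.0098 and 0.0384. From mESCs to NSCs the values were 0.447 in WT and 0.154 in KO cells in the region, against 0.118 and 0.155 on the other autosomes. Against the other autosomes, the genes of the region were thus higher in NSCs than in day 9 cells in WT and not in KO cells. Day 9 cells came from another protocol than NSCs, so stage and protocol cannot be told apart in that difference. The 3 called genes of the region were Ict1, a peptidyl-tRNA hydrolase of mitochondria (106, 109.8 and 107 FPKM in WT, 64.5, 61.2 and 54.2 in KO libraries, -0.84, adjusted p = 0.0267), Hoxb2 and Hoxb3. Sox9, Gfap, the histone gene H3f3b (525, 493 and 484 FPKM in WT and 390.5, 307 and 296 FPKM in KO, adjusted p = 0.0421 with the block) and the ribosomal protein gene Rpl38 (4351, 3715 and 3192 FPKM in WT and 3416, 2234 and 2026 FPKM in KO, adjusted p = 0.047 with the block) also lie in it.

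**Figure D4:**
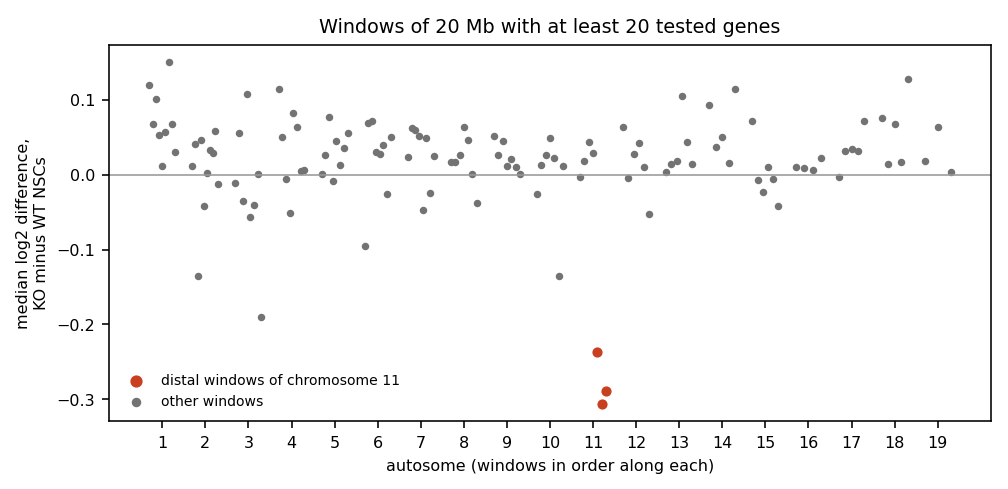
Median difference of log2(FPKM + 1), KO minus WT NSCs, in 127 windows of 20 Mb (1 point each, at least 20 tested genes), grouped by autosome. The 3 windows of distal chromosome 11, in red, sit at -0.236 to -0.306, below all other windows.

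The 64 genes were mostly not called at the other stages of the same lines. With limma on the 6 libraries of each stage, KO against WT gave 1 call in mESCs, Smchd1 itself, or 0.009% of those tested, 317 calls at day 7 or 2.85%, and 1258 at day 9 or 11.3%. Of the 64, 1 was called in mESCs, 11 at day 7 and 26 at day 9, in either direction. Among the 34 genes that rose in NSCs, 0, 6 and 11 were also higher and 0, 1 and 3 were lower at these stages, and the medians of the 34 were -0.029, 0.150 and 0.223. Of the 30 that fell, 1, 2 and 8 were also lower and 0, 2 and 4 higher, with medians of -0.124, -0.125 and -0.188. No libraries are shared between the stages, but all come from the same pair of lines. Some of the 64 were near 0 FPKM in both genotypes at the other stages, such as Gpd1 with means of at most 0.469. A KO effect on such genes could hardly be seen there. The KO effect in NSCs minus the mean KO effect at the other 3 stages differed from 0 for 745 of 11117 genes in limma, 6.7% of those tested, 387 of them upward. Of the 64 it differed for 57. They were chosen for their difference in the same NSC libraries, so this share cannot be set against that of all genes. Scaled to the same sum of FPKM, 555 of 782 calls were upward, where the median over all genes moved from 0.012 to 0.11, so the split of directions in this contrast depends on the scaling.

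Zic1 and Fzd10 were also higher in KO cells at day 9. Mean levels of Zic1 at day 9 were 2.38 FPKM in WT and 39.5 FPKM in KO cells (3.53, adjusted p = 0.00234), and those of Fzd10 7.69 and 62.7 FPKM (2.85, adjusted p = 0.000781). Dmrta2 was higher from day 7 (1.42, adjusted p = 0.00185) and Tfap2a at day 9 (1.84, adjusted p = 0.000535). Hoxd8, Hoxd9 and Cdkn2a did not pass the test at day 9. Hoxd8 and Hoxd9 differed by -0.08 and -0.07 at day 9 (adjusted p = 0.875 and 0.778), and Cdkn2a by -0.19 (adjusted p = 0.723), when its mean was 2.01 FPKM in WT and 1.77 FPKM in KO cells. Hoxa5 was lower in KO cells at day 9 (-1.64, adjusted p = 0.0489), and Hoxa2 was higher (0.67, 0.0454), each opposite to its change in NSCs. Mfap2 was also lower in KO cells at day 9, at 69 FPKM in WT and 57.9 FPKM in KO cells (-0.25, 0.0357), far above its level in KO NSCs. Nnat was lower in KO cells at day 9 as well, at 1237 and 637 FPKM (-0.99, 0.00719), while Prom1 was at 52.7 and 51.8 FPKM (-0.04, 0.884).

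**Figure D5:**
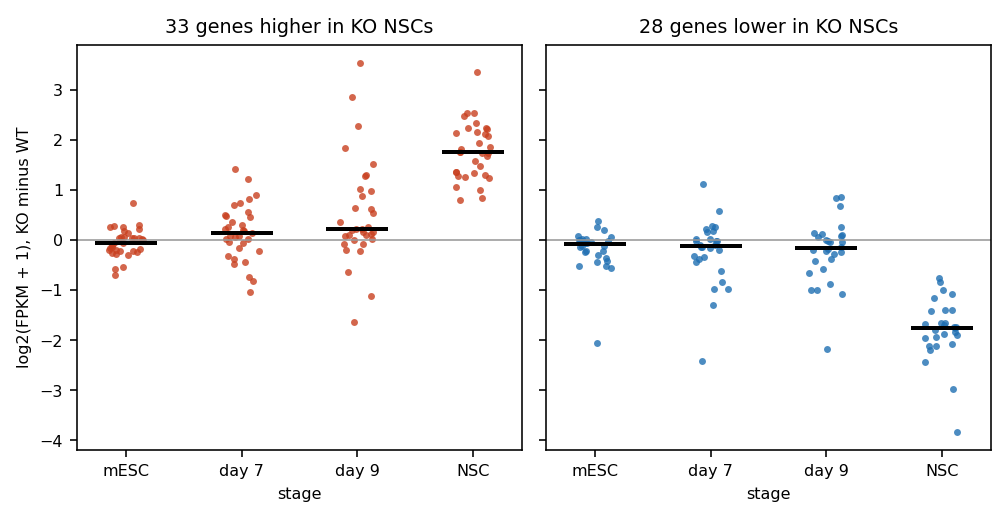
KO minus WT difference of log2(FPKM + 1) at 4 stages (mESC, day 7, day 9, NSC) for the called genes without short RNA entries, 33 higher in KO NSCs and 28 lower, 1 point per gene and a bar at the median of each stage. The points lie around 0 in mESCs except Smchd1, and several lie on the side opposite to their NSC direction at day 9.

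Other gene lists gave few or no calls over the 6 libraries. Of 22 tested Wnt genes 1 rose (Fzd10), against 0.576% of all tested genes, and of 9 hedgehog, 15 Notch, 23 FGF and EGF, 27 hypoxia and glycolysis and 13 interferon and antigen presentation genes 0 were called, with medians of -0.178, -0.022, 0.158, 0.167, 0.226 and 0.103 for these 6 lists. The medians without WT NSC 1 were -0.135, -0.041, -0.016, 0.148, -0.016 and 0.038, so that those of the Notch list and of the hypoxia and glycolysis list turned sign, and 3, 0, 1, 0, 2 and 2 genes were called, against 5.89% of all tested genes. Among chromatin genes, 1 of 20 of the SMC, cohesin and CTCF list fell, Smchd1 itself, and 0 of 28 Polycomb genes and 0 of 19 DNA methylation genes were called, with medians of 0.114, -0.092 and 0.001, and of 0.178, -0.023 and 0.071 without WT NSC 1. In that fit 1 gene of the SMC list was higher and 1 lower, 1 Polycomb gene was lower and 0 DNA methylation genes were called. Of 8 retinoic acid, 13 neuron and 8 mesenchyme genes, and of the 3 pluripotency genes and 1 endoderm gene tested, 0 were called, with medians of 0.020, -0.237, 0.322, -0.287 and -0.420, and with the block Aldh1a1 was higher and Gap43 lower. The medians without WT NSC 1 were 0.033, -0.534, 0.455, -0.020 and -0.337. In that fit 1 retinoic acid gene was lower, 1 neuron gene was higher and 2 were lower. One further call was of a mesenchyme gene, which was higher, and these stand against 5.89% of all tested genes. No germline gene of the 21 listed and no endothelial or mesodermal gene of those lists reached a mean of 1 FPKM. Of the Polycomb genes 9 were lower in all 3 pairs and 0 higher, where 2042 of all tested genes were lower and 2222 higher in all pairs.

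The promoters of the called genes had lower median counts of CG dinucleotides than those of all tested genes. Over 250 bases before the gene start, read on 1 strand since CG reads the same on both, the median count was 14.5 for 28 of the 34 genes that rose and 10 for 27 of the 30 that fell, where it was 16 for 10492 of the 11118 genes, the others having no matched gene start. At least 10 were present in 71.4%, 51.9% and 75.0% of these promoters, and at least 1 in 92.9%, 96.3% and 99.1%. These counts are a description, and no difference between them was tested.

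A group of the rises, formed after their values were seen, was of pseudogene, noncoding and other entries. Some of these may have near copies in the genome, which was not tested. Pisd-ps1 and Pisd-ps2, pseudogenes of a phospholipid enzyme gene, had means of 23.6 ± 4.08 (SD) and 4.97 ± 1.36 (SD) FPKM in WT and 81.6 ± 5.26 (SD) and 15.4 ± 1.57 (SD) FPKM in KO libraries, with no overlap (adjusted p = 0.00425 and 0.0259). The 3 noncoding entries 1700030C10Rik, 5730507C01Rik and 2410018L13Rik, which lie between 18 and 24 Mb on chromosome 12, rose by 2.54, 1.74 and 1.27 on the log2 scale. All 3 were also higher in KO cells at day 9, 1700030C10Rik by 2.27 and 2410018L13Rik by 0.87. AA792892 had 0, 0.354 and 0 FPKM in WT and 3.11, 5.93 and 2.84 in KO libraries, and the joint entry Gm18756,Vmn1r90 had 0.0511, 0.105 and 0.103 FPKM in WT and 4.64, 3.4 and 5.74 FPKM in KO libraries, with adjusted p of 0.0267 and 0.00743. How reads with several places were counted was not stated, so these values are uncertain. Short RNA entries, of which 1 of 63 tested rose and 2 fell, are uncertain as well, since poly(A) libraries do not capture such RNAs well and each lies within another gene. Those that fell were Snora7a and Scarna13. Snora7a, within Rpl32, was at 30.5, 28.6 and 28.3 FPKM in WT and Scarna13, within Snhg10, at 2.43, 2.28 and 2.26 FPKM in WT, both listed at 0 in all KO libraries. Without the short RNA entries 61 genes were called.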

How the data were processed

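RNA of WT and SmcHD1 KO cells was sequenced by the authors as stranded poly(A) libraries with single-end reads, trimmed with Trim Galore 0.6.6 and mapped to mm9 with TopHat2 2.1.1, and reads from the X chromosome or from ribosomal RNA were taken out. The authors deposited FPKM per gene from Cuffdiff, with no counts. Read totals, the normalization between libraries and whether strand was used in counting are not given in the sources used here. Of 36 FPKM columns, 12 that belong to no sample used here were left out. The columns of the authors' own comparisons were not used.

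From these values, genes outside X and Y with a mean of at least 1 FPKM over the 6 NSC libraries were kept, and log2(FPKM + 1) was tested with limma 3.58.1 in R 4.3.3 (group means, empirical Bayes with trend and robust settings, two-sided, Benjamini-Hochberg adjustment over all tested genes, adjusted p under 0.05). Fold changes on this scale understate the change of low genes. Relative read totals came from the smallest steps between low values. The procedure was tested on simulated data with known changes. Replicate numbers come from the labels. Deviations from the group means correlated at 0.344, 0.189 and 0.249 between WT and KO libraries of the same number and at -0.272 to 0.0482 between different numbers, all 3 pairs over the limit of 0.1, so a fit with the replicate number as a block was added. Contrasts between stages used all 24 libraries and 11117 genes, since 1 gene had failed estimates in libraries of other stages. Alternatives were group weights, a pseudocount of 0.1, other filters, scalings and moderation, and leaving out libraries. Windows of 20 Mb needed at least 20 tested genes.

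The genes, lists and tests were chosen with earlier results of these data known. Named genes were Smchd1, the 15 largest rises and falls among called genes with at least 5 FPKM in the higher genotype and no overlap, genes called with the block, called members and the 2 largest changes of each list, and the markers, and the text gives a part of these, chosen after their values were seen. Other called genes were added. Promoters were read from NCBIM37 at GENCODE M1 gene starts. Some results on single genes are not reported here.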

Additional observations from a re-analysis of the deposited data

Results flagged for a closer look

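The KO effect in NSCs differed from the mean KO effect at the other 3 stages for 91 of the 115 genes named in the text, in a limma contrast over all 24 libraries with an adjusted p under 0.05, where 6.7% of all tested genes passed. The value is the difference of log2(FPKM + 1), KO minus WT, in NSCs minus the mean of that difference in mESCs, at day 7 and at day 9. A positive value thus means a KO effect that is more upward in NSCs. The named genes were chosen for their values in NSCs, so their share cannot be set against that of all genes. Some of them had means near 0 FPKM in both genotypes at the other stages, such as Aldh1a1 (at most 0.039) and Gpd1 (at most 0.469). For these the value mostly repeats the NSC difference, while others, such as Bcat1, were expressed at every stage.

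For Hox genes and the HoxA entry Mira the values were Hoxd8 3.43, Hoxd9 2.37, Hoxa5 2.88, Hoxa4 1.94, Hoxa3 1.7, Mira 2.48, Hoxa2 -2.19 and Hoxb2 -1.48. Among other developmental transcription factors and coactivators they were Six2 1.74, Eya2 1.45, Vax2 2.1, Dmrta2 1.62, Tfap2a 1.58, Barx1 1.89, Tbx15 1.75, Cebpa 1.12, Zfp703 -1.43, Meis2 -1.3, Gbx2 -2.04, Sox21 -1.35 and Sox2 -0.68. The cell cycle genes had Cdkn2a 2.12, Cdkn2b 1.64 and Ccnd2 1.12. For genes of matrix, cytoskeleton and adhesion the contrast gave Mfap2 -3.69, Fbln2 -1.86, Mylk -2.28, Csrp1 -1.47, Tgfb1i1 -1.59, Flnc -1.28, Parvb -1.25, Prkcdbp -1.69, Igsf10 -1.51, Iqgap2 -0.73, Col5a3 -1.24 and Adamts4 0.99. Other genes with a positive value were Nap1l5 1.18, Efna3 1.67, Gpd1 1.66, Cnrip1 2.06, Csf2ra 1.3, Chrna4 1.01, Pcdhb5 1.08, Svip 1.06, D18Ertd653e 1.08, Fam19a5 0.81, Aldh1a1 2.62, Aqp4 1.58, Cebpb 1.4, Inhbb 1.32, Nptx2 2.26, Gpr37l1 1.59, Trf 2.02, Rps6ka1 1.67, Cxcl14 1.77, Isl2 1.78, Axl 0.85 and Chl1 1.13. Other genes with a negative value were Rab3b -2.9, Nnat -1.76, Prom1 -1.36, Sema3a -1.73, Crmp1 -0.75, Bmpr1b -1.56, Bcat1 -2.17, H1f0 -0.96, Ctsz -1.54, Isyna1 -1.73, Mapk8ip2 -1.49, Ict1 -1.02, 2510002D24Rik -1.58, Slc38a4 -2.33, Gdf15 -1.94, Asns -1.72, Atf4 -0.85, Sox10 -1.58, Pcdhb6 -1.43, H3f3b -0.55, Mtap1b -1.48, Acsl5 -1.58, Syk -1.85, Bok -1.47, Matn2 -1.49 and Grm3 -1.07. The pseudogene, noncoding and other entries that may have near copies in the genome had Pisd-ps1 1.15, Pisd-ps2 1.13, 1700030C10Rik 1.37, 5730507C01Rik 1, 2410018L13Rik 0.73, AA792892 2.39 and Gm18756,Vmn1r90 1.83.

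With weights for the unequal spread of the 8 groups, 80 of the 91 passed, and with the replicate block 90, and no value changed its sign under the alternatives run. No test for a single library far from the others was made within groups of 3.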

How the results depend on the processing

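Depth per library was known only as relative read totals, and 3 libraries per genotype limit every test. The count of genes that differed between KO and WT NSCs, 64 over the 6 libraries, was 801 with all 8 groups, 265 with all 8 groups and group weights, 128 with the replicate block, 1271 with all 8 groups and the replicate block, and 350 without pair 1, and ranged from 9 to 655 when 1 NSC library was left out, with 655 without WT NSC 1, 35 without WT NSC 2, 10 without WT NSC 3, 19 without KO NSC 1, 16 without KO NSC 2 and 9 without KO NSC 3. Of the 64 genes, these fits kept 61, 57, 61, 61, 62, and 64, 27, 9, 15, 16 and 8. Other settings stayed within 1.5 times of the count, at 56 with a pseudocount of 0.1, 81 with no filter, 58 with a filter over 24 libraries, 59 at the same sum and 65 at the same median of FPKM, 79 without the trend and robust settings, and 61 without short RNA entries, and of the 64 they kept 55, 54, 48 (of 60 tested), 53, 63, 61 and 61. No gene among the 64 changed direction in any of these fits. The count for the KO effect in NSCs minus that at the other stages, 745, was 254 with group weights, 1234 with the replicate block and 427 to 1344 with 1 NSC library left out, of which the highest was without WT NSC 1 and the lowest without KO NSC 3. The chromosome 11 median, -0.106, was -0.0565 at the same sum of FPKM, -0.0631 in pair 1 alone and -0.145 in pair 3 alone, and -0.0926 to -0.121 with 1 library left out. Fits with more or fewer libraries differ in their degrees of freedom, and the cause of the other shifts was not tested. Besides the calls named in the report, the blocked fit changed none of the 64, and Smchd1 passed the test in every fit of KO against WT NSCs that was run. The fits without pair 1 and without short RNA entries and the single pairs of chromosome 11 were chosen after the data were seen.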

Other observations

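Among genes below the filter, 2 of 4 markers of endoderm were at 0 in WT NSCs and low in KO NSCs. The 4 listed markers summed to 0 to 0.0597 FPKM in the WT libraries and to 1.59 to 4.00 FPKM in the KO libraries. Foxa2, a factor of endoderm and floor plate, was listed at 0 in the 3 WT libraries and at 0.543, 2.24 and 1.67 FPKM in the KO libraries. Gata4, a factor of endoderm and heart, was listed at 0 in the WT libraries and at 1.05, 1.76 and 0.449 FPKM in the KO libraries. Both were below the mean of 1 FPKM needed for the test, and in the limma fit with no filter on low values neither passed, with adjusted p of 0.122 and 0.133. The other 2 markers were not higher in KO NSCs, since Sox17 was listed at 0 in all 6 libraries and Gata6 at 0, 0.0597 and 0 FPKM in the WT libraries and at 0 in the KO libraries. Markers of mesoderm summed to 0.903 to 1.09 FPKM in the WT and 0.377 to 3.04 FPKM in the KO libraries, which overlapped.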
